A study of Mus musculus with 9 samples.

Results

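The genes of surfactant and of the alveolar type II cell were followed through both comparisons of a mouse lung cancer organoid study. The members were the 10 genes Sftpc, Sftpa1, Sftpb, Sftpd, Abca3, Lamp3, Slc34a2, Napsa, Etv5 and Lpcat1, each found by its symbol, and all 10 were among the 57010 gene identifiers that each deposited table lists. RNA of organoids, which are cell cultures grown into small tissue-like bodies, was sequenced in 9 libraries. They were 3 libraries of mouse small cell lung cancer (SCLC) organoids treated with an agent that the series' design text names GSK, 3 of SCLC organoids with no treatment named, and 3 of normal mouse lung organoids (Normal). The labels and design text give no strain, genotype, sex, age, dose or treatment time for any group, and they do not say whether libraries came from separate cultures or animals, so p-values measure only the spread between these libraries, which may be technical. The deposited tables compare SCLC with Normal and GSK with a control that matched the SCLC libraries, and they hold no value of a single library. Levels below are therefore group means of normalized counts, implied by the authors' mean over the 6 libraries of a comparison and their fold change, and fold changes are log2 values ± the authors' standard error.

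Pulmonary surfactant is a film of phospholipid and protein that lowers surface tension in the alveolus. Type II cells make it, store it in lamellar bodies and release it, and they also act as progenitors of the flat type I cells through which gas passes. SP-B and SP-C are small hydrophobic proteins that spread the lipid, while SP-A and SP-D are secreted collectins of innate defence. Alveolar macrophages take up spent surfactant and share with type II cells the expression of lysozyme, MHC class II and several lysosomal genes, so those genes do not tell the cell types apart in bulk RNA.

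The implied sums of normalized counts per library were 31919648 in GSK and 45333553 in SCLC in one table, and 42007045 in SCLC and 44706821 in Normal in the other. Marker genes were read beside the labels. All 10 neuroendocrine markers were higher in SCLC than in Normal in the authors' deposited table. The 18 macrophage markers summed to 70187 normalized counts in GSK and 577 in SCLC of the table that compares them, with 12 of the 18 under a mean of 1 in SCLC. The same 18 markers summed to 542 in SCLC and 9938 in Normal of the other table. The GSK libraries thus carried macrophage transcripts that were at or near 0 for most of these markers in the SCLC libraries, while 5 of the 10 neuroendocrine markers were lower and 1 (Calca, a peptide hormone gene) was higher in GSK than in SCLC in the authors' deposited table. In bulk RNA, fewer cells of a type and less RNA per cell cannot be told apart.

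All 10 members were lower in SCLC than in Normal. The test was the authors' own, with an adjusted p under 0.05, and of the 24719 genes it covered 25.1% were lower and 25.3% higher in SCLC, 50.4% in either direction, in the authors' deposited table. The median log2 fold change was -11.74 over the 10 members and 0.10 over all genes tested, from the authors' deposited table. Members fell into an upper and a lower range: Abca3, Lpcat1 and Etv5 had log2 fold changes between -4.34 and -5.89, and the other 7 between -11.10 and -14.14, in the authors' deposited table.

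Sftpc encodes SP-C, a protein made by type II cells alone in the adult lung. It had an implied mean of 215 in SCLC and 1891873 in Normal, which is 4.23% of all normalized counts of the Normal group. Its log2 fold change in the authors' deposited table was -13.10 ± 0.26 (adjusted p listed at 0). Sftpc was the most abundant member in Normal by a wide margin, also per length, with 1829664 normalized counts per kilobase of exon against 268841 for Sftpb, the next.

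Sftpb, the gene of SP-B, without which lamellar bodies do not form properly, had 106 in SCLC and 529079.7 in Normal. Its log2 fold change in the authors' deposited table was -12.28 ± 0.84 (adjusted p of 4.76e-47). The standard error was wider for Sftpb than for Sftpc, and wider still for the collectin genes.

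Sftpa1, which encodes SP-A, had the largest fall of the 10 members in the authors' deposited table, -14.14 ± 1.48 (adjusted p of 2.3e-20). Its implied mean was 5.14 in SCLC and 92778 in Normal. Sftpd, which encodes SP-D, had 16.6 in SCLC and 110726 in Normal. The fold change of Sftpd in the authors' deposited table was -12.71 ± 1.29 (adjusted p of 1.27e-21). Both collectin genes lie in a cluster on mouse chromosome 14 with 1 coding gene, Mbl1, between them in RefSeq, and both were among the 4 members with the lowest levels per kilobase in SCLC.

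Among the genes of the lamellar body and its cargo, Lamp3, a lysosome-associated membrane protein of the lamellar body that in human also marks mature dendritic cells, had 3.88 in SCLC and 42447 in Normal. Its fold change in the authors' deposited table was -13.42 ± 0.41 (adjusted p of 8.19e-233). Napsa, an aspartic protease that takes part in processing pro-SP-B, had 21.0 in SCLC and 46213 in Normal, a fold change of -11.10 ± 0.30 (adjusted p of 5.03e-287) in the authors' deposited table. The fall of Lamp3 lay in the range of the 4 surfactant protein genes and that of Napsa was smaller than theirs, and both were left at a small part of the Normal level (0.00915% for Lamp3 and 0.0455% for Napsa).

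Slc34a2, the sodium-phosphate cotransporter of the type II cell's apical membrane, had 138 in SCLC and 323681 in Normal. It fell with the widest standard error of the 10 members in the authors' deposited table, -11.20 ± 2.16 (adjusted p of 9.22e-07).

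The members with the smallest falls were Abca3, Lpcat1 and Etv5, which act in lipid handling and in gene control and have uses outside the type II cell. Abca3, the transporter that loads phospholipid into lamellar bodies, had 4213 in SCLC and 85290.4 in Normal, and its fold change in the authors' deposited table was -4.34 ± 0.33 (adjusted p of 1.16e-37). Lpcat1, the acyltransferase that remodels lysophosphatidylcholine into the main surfactant lipid, had 3779 in SCLC and 129158 in Normal, with -5.10 ± 0.22 (adjusted p of 4.79e-118) in the authors' deposited table. Etv5, an ETS transcription factor that acts downstream of FGF signalling and maintains type II cells in mouse, had 415 in SCLC and 24555 in Normal, with -5.89 ± 0.61 (adjusted p of 4.05e-21) in the authors' deposited table. The order of levels per kilobase of exon accordingly changed between the groups: Lpcat1 (816) and Abca3 (449) came before Sftpc (208) in SCLC, whereas Sftpc and Sftpb led in Normal. The tables give no error for a level in 1 group, so neighbours in these orders were not compared by a test.

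**Figure D1:**
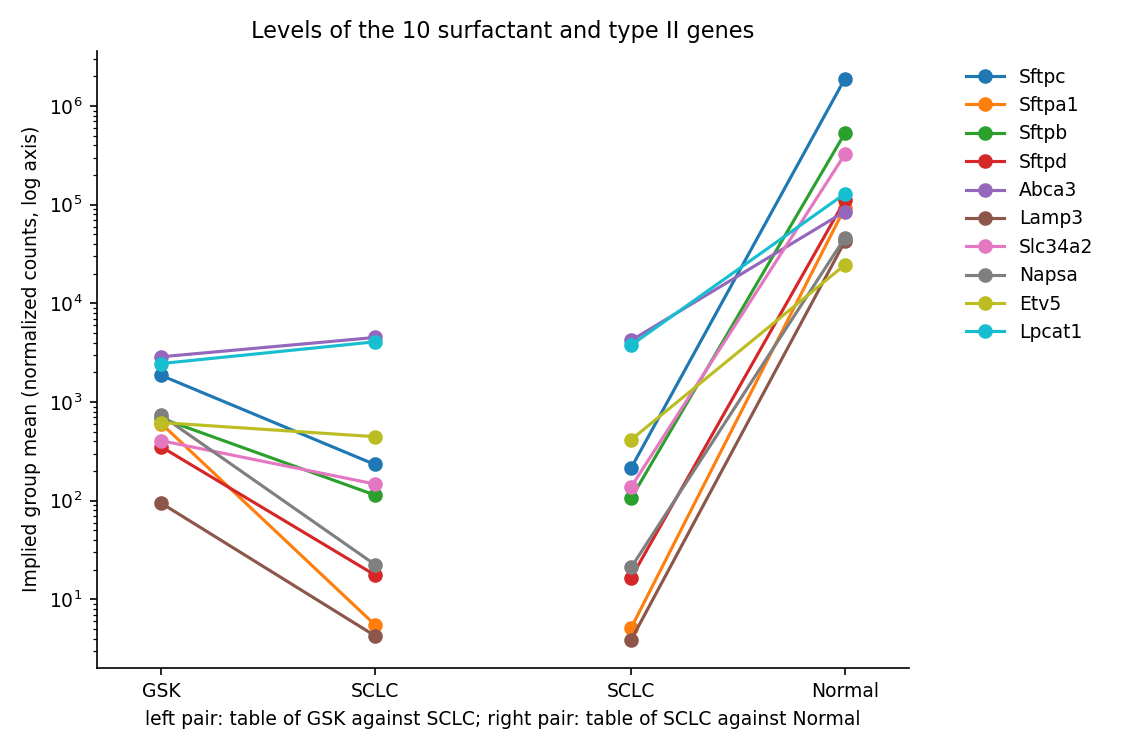
Implied group means of the 10 members in normalized counts (log axis), one line per gene, with the table of GSK against SCLC on the left and the table of SCLC against Normal on the right. In Normal all 10 genes lie between 24555 and 1891873, and in SCLC of the same table between 3.88 (Lamp3) and 4213 (Abca3).

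The sequence before the transcription start was read for the members that fell most and least, because they moved by such different amounts. Of the 10 members, 7 had an entry among RefSeq promoters (build GRCm38.p6), and Sftpc, Sftpd and Napsa had none. Each run is the 250 bases upstream of the annotated start, 5′ to 3′ on the gene's strand, and capitals mark matches, on either strand, to the motifs CACTNNAG and CTCAAG (for the lung lineage factor NKX2-1), TNTTTAC (FOXA), TTGCNNAA (C/EBP) and CCGGAAGT (ETS). Of the members with large falls, Sftpa1, Sftpb and Lamp3 are shown first, then Abca3, and Lyz2 as the gene shared with macrophages. The windows of Slc34a2, Lpcat1 and Etv5 were searched as well and are not printed.
Sftpa1, chr14:41131538-41131787, plus strand: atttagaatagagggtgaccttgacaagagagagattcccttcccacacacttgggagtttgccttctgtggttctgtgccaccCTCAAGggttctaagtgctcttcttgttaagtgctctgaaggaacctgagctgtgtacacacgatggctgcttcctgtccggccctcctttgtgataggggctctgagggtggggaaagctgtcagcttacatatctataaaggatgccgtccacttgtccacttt
Sftpb, chr6:72304360-72304609, plus strand: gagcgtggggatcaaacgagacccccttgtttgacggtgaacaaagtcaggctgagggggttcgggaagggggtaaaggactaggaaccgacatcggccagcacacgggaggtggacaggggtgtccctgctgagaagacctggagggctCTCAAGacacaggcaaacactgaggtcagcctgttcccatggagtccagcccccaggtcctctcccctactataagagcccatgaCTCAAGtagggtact
Lamp3, chr16:19706366-19706615, minus strand: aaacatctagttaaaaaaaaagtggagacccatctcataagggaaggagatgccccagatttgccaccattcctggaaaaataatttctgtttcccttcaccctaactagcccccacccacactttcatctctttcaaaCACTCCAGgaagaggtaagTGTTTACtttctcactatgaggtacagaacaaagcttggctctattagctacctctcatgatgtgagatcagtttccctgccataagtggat
Abca3, chr17:24351773-24352022, plus strand: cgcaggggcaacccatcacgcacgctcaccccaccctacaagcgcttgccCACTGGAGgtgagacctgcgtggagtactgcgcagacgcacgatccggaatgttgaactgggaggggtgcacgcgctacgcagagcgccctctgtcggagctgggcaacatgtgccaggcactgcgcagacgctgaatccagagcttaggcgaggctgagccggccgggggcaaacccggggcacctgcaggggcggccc
Lyz2, chr10:117282273-117282522, minus strand: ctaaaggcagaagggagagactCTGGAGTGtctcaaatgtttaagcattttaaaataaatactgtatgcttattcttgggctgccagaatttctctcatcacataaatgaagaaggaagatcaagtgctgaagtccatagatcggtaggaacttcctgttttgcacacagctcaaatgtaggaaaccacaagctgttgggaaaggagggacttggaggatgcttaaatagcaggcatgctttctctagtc

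The Sftpb run held CTCAAG at a pair of places, ending 95 and 10 bases before the start, and the Sftpa1 run held it once, ending 161 bases before the start. The Lamp3 run held CACTCCAG and, ending 86 bases before the start, the FOXA match TGTTTAC, and none of these matches overlapped another. Lyz2 and Abca3 each held 1 match to CACTNNAG. Of the windows not printed, that of Slc34a2 held the C/EBP match TTGCGCAA, ending 41 bases before the start. One of the Etv5 windows held the FOXA match GTAAACA, ending 177 bases before the start, and the Lpcat1 window held no match. Among all 32851 upstream windows of the same length, 13.3% held CTCAAG, 12.9% CACTNNAG, 10.9% TNTTTAC, 9.56% TTGCNNAA and 2.88% CCGGAAGT, and 23.2% held at least one of the NKX2-1 motifs, against 4 of the 7 members. The windows also differed in CpG content: the 250 bases held 0 CpG dinucleotides for Lamp3, 3 for Sftpa1 and 7 for Sftpb, but 16 for Lpcat1, 21 for Abca3, 28 for Slc34a2 and 27 and 18 for the pair of annotated starts of Etv5. The median over all windows was 6. Slc34a2 had a CpG-rich window and a large fall, so the windows do not sort the members by fall, and CpG content was looked at after the fold changes were known. A match is a description of the letters and not a bound site.

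The standard errors of the fold changes carry the spread between libraries. Under a negative binomial model with similar library depths, the error left after counting noise gives a coefficient of variation (CV) shared by the groups of a comparison. In the table of SCLC against Normal the CV was 183% for Slc34a2, 122% for Sftpa1, 108% for Sftpd and 70.6% for Sftpb, against a median of 27.2% over 14782 genes with both group means at least 10. A larger CV was found in 0.0609% of those genes for Slc34a2, 0.474% for Sftpa1, 0.697% for Sftpd and 2.94% for Sftpb. By contrast Sftpc (21.4%), Napsa (20.7%), Lpcat1 (18.5%) and Abca3 (28.1%) lay within the central 90% of genes, which ran from 17.2% to 63.5%.

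The table of GSK against SCLC, which shares the SCLC libraries with the first table, gave nearly the same CV for Slc34a2 (183%), Sftpa1 (120.2%) and Sftpb (71.8%) and 83.9% for Sftpd. The highest CV that 3 values at or above 0 can have is 173%, when 1 of them holds everything. The value of Slc34a2, an estimate under the model, lay above it in both tables. Which libraries carried the spread was not tested, since no library values were analysed here.

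**Figure D2:**
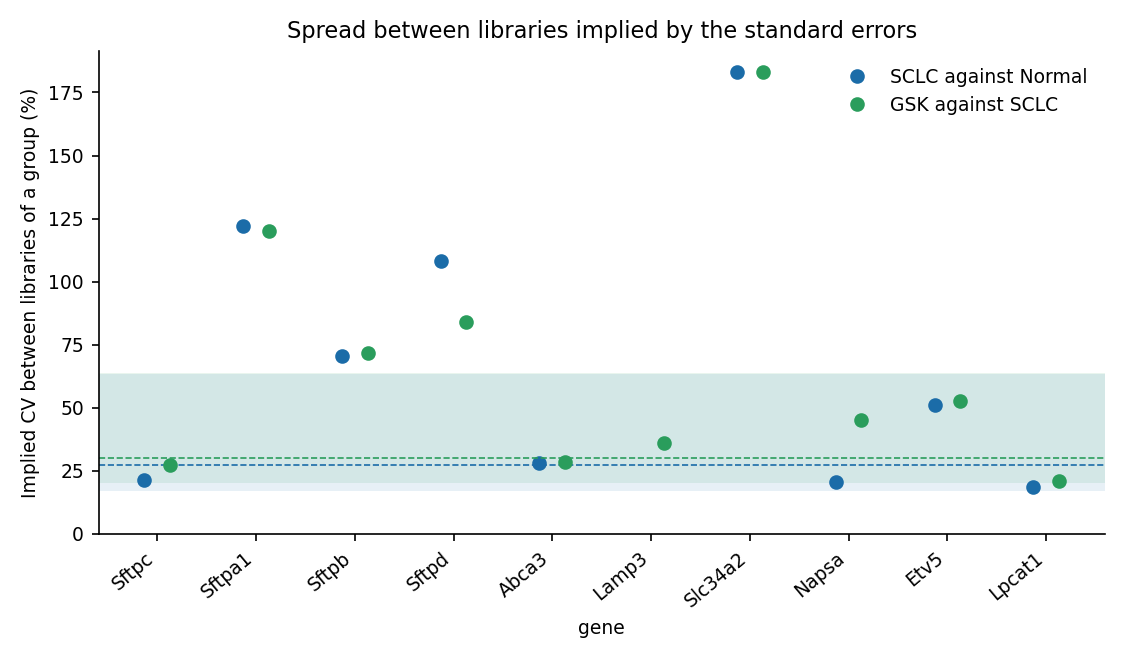
Coefficient of variation between libraries of a group, in percent, implied by the standard error of each member's fold change in each table. Dashed lines mark the medians over all genes (27.2% and 29.9%) and shading spans the central 90% of genes; Slc34a2, Sftpa1, Sftpd and Sftpb lie above the shading in both tables, and no value is drawn for Lamp3 in SCLC against Normal, where counting noise made up over 50% of the variance.

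The 10 members were then read in GSK against SCLC. The GSK libraries carried macrophage transcripts that were at or near 0 in SCLC for most of the markers. A change within the tumour cells can therefore not be told apart from a change in cell content. Of the 9 members with an adjusted p, 6 were higher in GSK, 1 was lower and 2 did not pass, while Slc34a2 had a fold change and no p. Of the 28376 genes tested, 21.6% were higher and 15.5% lower, 37.1% in either direction, in the authors' deposited table. The median log2 fold change was 3.0 over the 9 tested members, 2.79 over all 10, and 0.24 over all genes tested, from the authors' deposited table. The groups differed in their implied sums by -0.51 on the log2 scale, and scaling to equal sums turned the 6129 higher and 4404 lower genes of the authors' deposited table into 8738 higher and 1970 lower, so small falls depend on the scaling.

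The surfactant protein genes were all higher in GSK. Sftpc had 1858 in GSK and 232 in SCLC, and its fold change in the authors' deposited table was 3.0 ± 0.33 (adjusted p of 2.13e-18). Sftpa1 had 604 in GSK and 5.52 in SCLC, with 6.78 ± 1.46 (adjusted p of 2.58e-05) in the authors' deposited table. These are the narrowest and the widest errors among the 4 surfactant protein genes. Sftpb had 683 in GSK and 114 in SCLC, with 2.58 ± 0.85 (adjusted p of 0.00861) in the authors' deposited table, which no longer passed when the test asked for an absolute change above 1 (adjusted p = 0.321). Sftpd had 351 in GSK and 17.6 in SCLC, with 4.31 ± 1.01 (adjusted p of 0.00012) in the authors' deposited table.

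Among the lamellar body genes, Napsa had 732 in GSK and 22.5 in SCLC and rose by 5.02 ± 0.56 (adjusted p of 1.22e-17) in the authors' deposited table. Lamp3 had 94.2 in GSK and 4.27 in SCLC and rose by 4.46 ± 0.59 (adjusted p of 1.07e-12) in the authors' deposited table. Slc34a2 had 405 in GSK and 147 in SCLC, with a log2 fold change of 1.46 ± 2.16 and no p in the authors' deposited table, as did 108 genes of that table. None of the 3 members that had fallen least in SCLC rose in GSK by this test. Abca3 had 2875 in GSK and 4511 in SCLC (-0.65 ± 0.33, adjusted p of 0.117 in the authors' deposited table), and Etv5 had 619 in GSK and 445 in SCLC (0.48 ± 0.62, adjusted p of 0.594 in the authors' deposited table). Lpcat1 had 2455 in GSK and 4075 in SCLC and fell in the authors' deposited table, -0.73 ± 0.25 (adjusted p of 0.0118). The call of Lpcat1 ended when scaled to equal sums (-0.23, adjusted p = 0.509) and when centred on the median of abundant genes (-0.49, adjusted p = 0.118).

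The 2 comparisons share the SCLC libraries, and their values are therefore set side by side only. The summed level of the 10 members was 10677 in GSK and 9575 in SCLC of that table, and 8913 in SCLC and 3275802 in Normal of the other. As a share of all normalized counts the members made up 0.0334% in GSK and 0.0211% in SCLC, and 0.0212% in SCLC and 7.33% in Normal. These sums include Abca3 and Lpcat1, whose levels were lower in GSK, so they do not show the rise of the surfactant protein genes.

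Genes that type II cells share with macrophages gave a different picture in GSK. Of 11 such genes, 9 were higher and 1, the fatty acid binding protein gene Fabp5, was lower in GSK in the authors' deposited table, with a median log2 fold change of 9.13, or 8.10 with the 3 genes under the floor of detection in SCLC set at their bound. Lyz2, the lysozyme gene of macrophages and type II cells, had 94202 in GSK and 2.64 in SCLC, a fold change of 15.12 ± 0.60 (adjusted p of 9.7e-136) in the authors' deposited table. In the other table Lyz2 had 2.47 in SCLC and 108056 in Normal, with -15.42 ± 0.48 (adjusted p of 2.36e-225) in the authors' deposited table. Lyz2 was thus nearly as abundant in GSK as in Normal, whereas Sftpc in GSK stayed far below its level in Normal.

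Lyz1, its neighbour on chromosome 10 with no coding gene between them in RefSeq, was at least 96.2-fold higher in GSK than in SCLC, which lay under the floor of 3 normalized counts over the group, in the authors' deposited table. Its level was 96.2 in GSK, against 19543 in Normal of the other table. Lyz1 and Lyz2 are close paralogs, and reads may have been split between them by the authors' counting, so the division of counts between the pair is uncertain. Relative to Normal, Lyz1 in GSK was in the range of the surfactant genes, and Lyz2 was above it.

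Cd74, the invariant chain of MHC class II, had 15853 in GSK and 5.67 in SCLC, with 11.45 ± 0.60 (adjusted p of 9.1e-77) in the authors' deposited table. H2-Aa and H2-Eb1, chains of the class II molecule, were at least 6784-fold and at least 6574-fold higher in GSK than in SCLC, which was under the floor, in the authors' deposited table. Their levels in Normal of the separately normalized table were lower than in GSK: H2-Aa had 22.0 and H2-Eb1 had 60.0.

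Ctsh, a cathepsin that helps to mature SP-B and SP-C and is also a macrophage lysosomal enzyme, had 2570.1 in GSK and 179.6 in SCLC, with 3.84 ± 0.48 (adjusted p of 1.93e-14) in the authors' deposited table. Npc2, a lysosomal sterol carrier, had 6242 in GSK and 5301 in SCLC and did not pass (0.24 ± 0.37, adjusted p of 0.662 in the authors' deposited table). Ctsh and Npc2 moved by amounts in the range of the 10 members, and Lyz2 and the class II genes by more. The fall of Fabp5 no longer passed when scaled to equal sums (-0.40, adjusted p = 0.288) or centred on the median (-0.66, adjusted p = 0.0635).

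In SCLC against Normal, 10 of the 11 shared genes fell and Fabp5 did not pass (-0.65 ± 0.32, adjusted p of 0.0824) in the authors' deposited table. Their median log2 fold change was -8.09 in the authors' deposited table, or -6.19 with the 3 genes under the floor in SCLC set at their bound. Cd74 had 5.20 in SCLC and 3759 in Normal (-9.50 ± 0.40, adjusted p of 7.16e-125 in the authors' deposited table), and Ctsh had 168 in SCLC and 142856 in Normal (-9.73 ± 0.34, adjusted p of 5.44e-172 in the authors' deposited table).

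**Figure D3:**
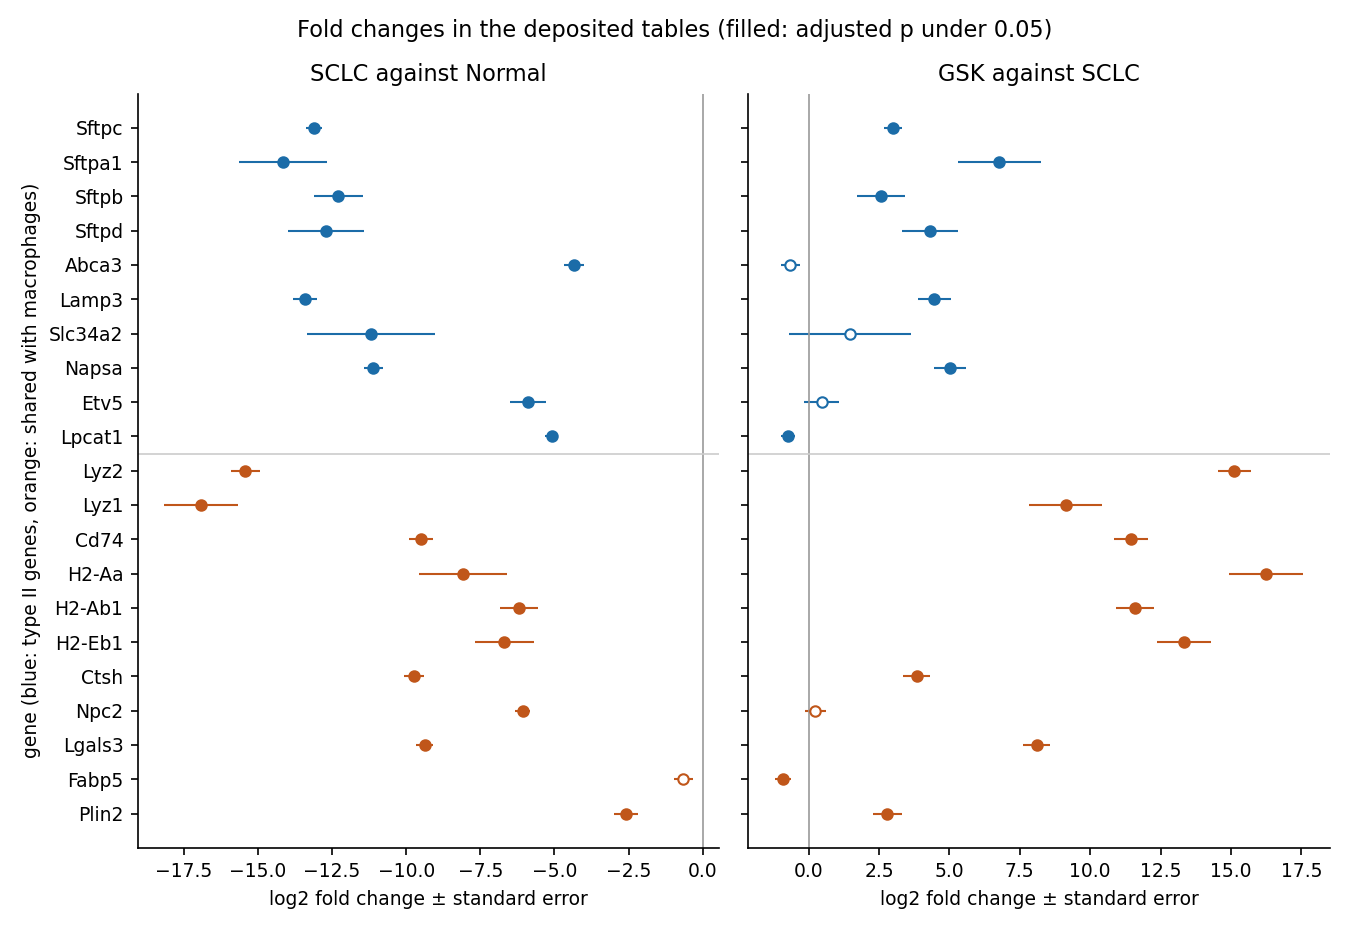
Log2 fold change ± standard error, as deposited by the authors, of the 10 members (blue) and the 11 genes shared with macrophages (orange) in SCLC against Normal and in GSK against SCLC; filled points have an adjusted p under 0.05. All blue points lie below 0 in SCLC against Normal, and in GSK against SCLC they lie between -0.73 and 6.78 while Lyz2 passes 15. The points of Lyz1, H2-Aa and H2-Eb1 are drawn as deposited. Their SCLC means lay under the floor, so the size of their changes is known only as a lower bound.

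Macrophage markers moved with the surfactant genes in GSK. Of the 18 markers, 17 were higher in GSK than in SCLC in the authors' deposited table. Ptprc, the common leukocyte antigen, was at least 12562-fold higher, and Chil3, a chitinase-like protein abundant in alveolar macrophages, at least 23732-fold higher in GSK, by the authors' deposited table. In GSK the 18 markers ranged from 166 to 23732, and none was under the floor; in SCLC of that table they ranged from under 1 to 409.

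Endothelial markers, a list added after the values were seen, moved the same way: 10 of 10 were higher in GSK in the authors' deposited table, their sum being 27152 in GSK and 878 in SCLC. Cdh5, the junction protein of vessels, was at least 5311-fold higher and Tie1, an endothelial receptor, at least 1837-fold higher in GSK, by the authors' deposited table. The part of other cell types in the GSK rise of the surfactant genes was not tested.

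The levels in GSK were also set beside those in Normal, as values only, because the tables were normalized separately and no test joins them. Sftpc in GSK was at 0.0982% of its Normal level, Slc34a2 at 0.125%, Sftpb at 0.129%, Lamp3 at 0.222%, Sftpd at 0.317% and Sftpa1 at 0.651%. Napsa was at 1.58%, Lpcat1 at 1.90%, Etv5 at 2.52% and Abca3 at 3.37%. The highest of these was that of Abca3, and the median was 0.484%. For the shared genes the median was 87.2%, with Lyz2 at 87.2% and Cd74 at 422%. Lyz1 at 0.492%, Ctsh at 1.80% and Npc2 at 1.89% lay within the range of the members. Above the Normal level were 5 of 11, including H2-Aa, H2-Ab1 and H2-Eb1. Those class II genes had low means in Normal, of 22.0, 205 and 60.0. Of the macrophage markers 17 of 18 were above the Normal level, the exception being the scavenger receptor gene Marco at 49.1%. Their means in Normal ranged from 2.14 to 2949, so some of these percentages rest on very low levels in Normal.

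**Figure D4:**
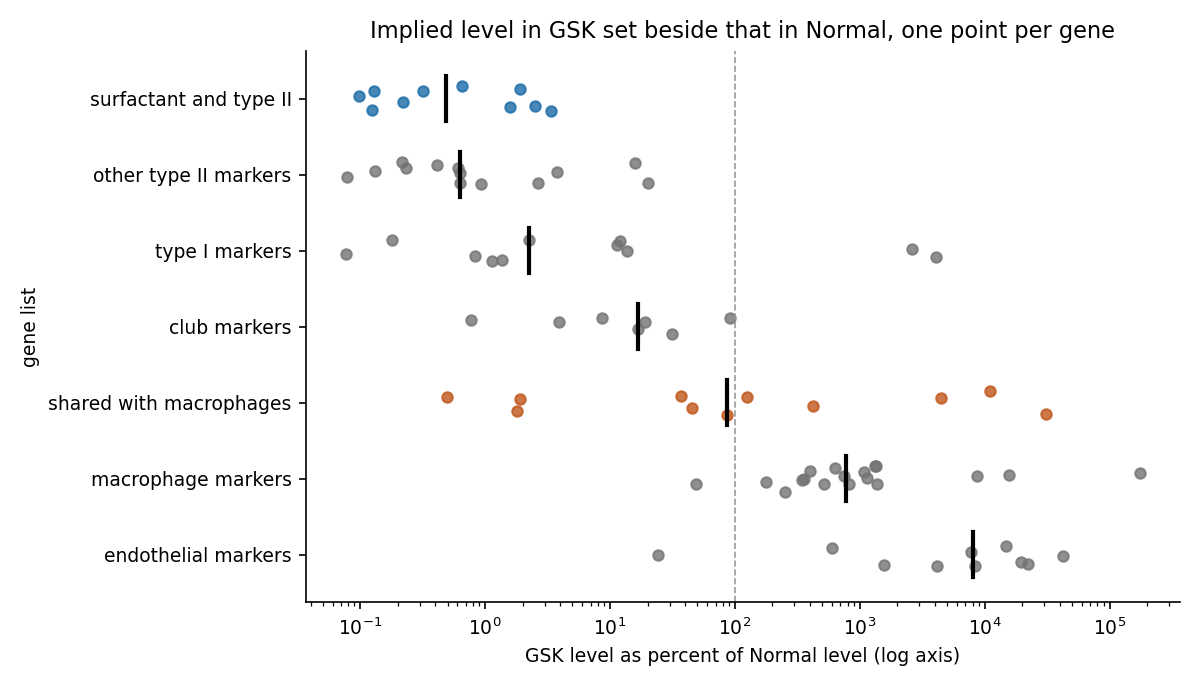
Implied level in GSK as a percent of the implied level in Normal (log axis), one point per gene and one row per gene list, with the median as a bar and 100% as a dashed line; the levels come from separately normalized tables. The 10 surfactant and type II genes lie between 0.0982% and 3.37%, and the macrophage markers, with means in Normal from 2.14 to 2949, have a median of 781%.

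Other markers of type II cells fell with the members in SCLC, and their changes in GSK were mixed. All 13 were lower in SCLC than in Normal in the authors' deposited table, with Chil1, a chitinase-like glycoprotein, at least 32321-fold lower and Cldn18, a tight junction claudin, at -14.81 ± 0.55. In GSK against SCLC, 8 were higher, Lgi3 was lower (-2.03 ± 0.56, adjusted p of 0.00155) and 4 did not pass in the authors' deposited table. Relative to Normal, the median of the 13 in GSK was 0.625%. The highest was Hc at 20.1%, above the highest of the members (3.37%). Hc, complement component C5, was at least 148-fold higher in GSK, and Chil1 at least 1214-fold higher in that group, by the authors' deposited table. The implied CV of Chil1 in GSK against SCLC was 124%, and which libraries carried that spread was not tested. Cxcl15, a lung chemokine with 320290.0 in Normal, had 251 in GSK and 111 in SCLC and did not pass (1.17 ± 0.86, adjusted p of 0.298) in the authors' deposited table.

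Transcription factors listed for type II cells fell by less in the median than the members, though the ranges overlapped. Of 12 tested, 8 were lower and Foxa1 and Nfib were higher in SCLC than in Normal in the authors' deposited table, with a median of -1.94. Nkx2-1, the lung lineage factor that activates surfactant promoters, had 22430.3 in SCLC and 42235 in Normal (-0.91 ± 0.32, adjusted p of 0.011 in the authors' deposited table). Foxa1, a pioneer factor of endoderm, had 10641 in SCLC and 1238 in Normal (3.10 ± 0.31, adjusted p of 4.88e-22 in the authors' deposited table), and Foxa2, its relative, did not pass (0.47 ± 0.30, adjusted p of 0.194 in the authors' deposited table). Tfcp2l1 (-5.42 ± 0.45) and Id2 (-5.03 ± 0.51) fell most in the authors' deposited table, and Nfib, which is often amplified in mouse SCLC, rose by 2.47 ± 0.25.

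In GSK against SCLC, 7 of these factors were lower and 3 higher in the authors' deposited table, and 4 were lower when scaled to equal sums. Gata6, an endodermal zinc finger factor, had 107 in GSK and 2375 in SCLC (-4.47 ± 0.44, adjusted p of 4.41e-22 in the authors' deposited table). Srebf1, which drives lipid synthesis, had -2.88 ± 0.36 (adjusted p of 5.38e-14), and Nkx2-1 had -1.30 ± 0.34 (adjusted p of 0.000773), in the authors' deposited table. The Nkx2-1 call ended when scaled to equal sums (-0.79, adjusted p = 0.0544). Cebpd, an inducible C/EBP factor, rose by 3.23 ± 0.61 and Id2 by 2.28 ± 0.56 in the authors' deposited table.

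Around Etv5, 8 of 13 genes of the FGF receptor circuit were lower and Fgfr4 was higher (2.51 ± 0.47) in SCLC than in Normal in the authors' deposited table. Over all genes tested there, 25.1% were lower. Fgfr2, the receptor that signals to type II cells, had 1157 in SCLC and 32021 in Normal (-4.79 ± 0.25, adjusted p of 8.15e-79 in the authors' deposited table), and Spry1, a feedback inhibitor, had -5.37 ± 0.36. In GSK against SCLC Fgfr2 was lower, with 140.2 in GSK and 1254 in SCLC (-3.16 ± 0.39, adjusted p of 1.19e-14 in the authors' deposited table), Spry4 (3.67 ± 0.83) and Dusp6 (1.95 ± 0.66) rose, and the other 10 genes did not pass. Over all genes tested in GSK against SCLC, 37.1% passed in either direction. Scaled to equal sums, 4 circuit genes were higher and 1 lower.

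Genes of surfactant lipid synthesis were lower more often than higher in both comparisons. In SCLC against Normal, 9 of 13 were lower and Elovl6 (2.08 ± 0.30) and Scap (1.28 ± 0.23) higher in the authors' deposited table. Scd1, the fatty acid desaturase, had 11359 in SCLC and 680892 in Normal (-5.91 ± 0.46, adjusted p of 9.55e-37 in the authors' deposited table), and Elovl1, an elongase, had -4.96 ± 0.22. In GSK against SCLC, 8 were lower and Cept1, of phospholipid head group transfer, higher (0.73 ± 0.30, adjusted p of 0.0448) in the authors' deposited table. Scd2 (-3.0 ± 0.35) and Scd1 (-3.0 ± 0.43) had the largest falls in the authors' deposited table, opposite in direction to the surfactant protein genes, and scaled to equal sums 6 lipid genes were lower and 2 higher.

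Of 20 genes of lamellar body formation and surfactant turnover, 18 were tested in SCLC against Normal, of which 11 were lower and Hps1 (1.40 ± 0.21) and Nedd4 (0.77 ± 0.20) higher in SCLC than in Normal in the authors' deposited table. Adgrf5, a receptor that restrains surfactant secretion in type II cells and is also expressed by lung endothelium, had 3.39 in SCLC and 22656 in Normal (-12.70 ± 0.44, adjusted p of 2.35e-177 in the authors' deposited table). In GSK it had 6147, against 3.56 in SCLC (10.75 ± 0.66, adjusted p of 5.39e-57 in the authors' deposited table). The endothelial markers given above were also higher in GSK, and the part of endothelium in the Adgrf5 level was not tested. In all, 7 of the 20 were higher and 7 lower in GSK in the authors' deposited table, Rab38, a small GTPase of lamellar body biogenesis, having the largest fall (-3.70 ± 1.0), and 2 were lower when scaled to equal sums.

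The genes whose pair of fold changes lay nearest to that of Sftpc, among 18178 genes tested in both comparisons, were Ndnf, Sftpb, Xist, Ager and Kcnj15, at distances of 0.88 to 1.26 on the log2 scale. Ndnf had -13.04 ± 0.69 in SCLC against Normal and 2.12 ± 1.01 in GSK against SCLC, the second not passing (adjusted p = 0.0843), in the authors' deposited table. Ager, the receptor for glycation products of type I cells, had -11.92 ± 0.40 and 2.72 ± 0.43 in the same comparisons of the authors' deposited table. Xist, which coats the silenced X chromosome, had -14.14 ± 0.49 and 3.06 ± 0.96 in the authors' deposited table, so the nearest patterns were not those of type II genes alone. The implied mean of Xist was 1.76 in SCLC and 31710 in Normal, and 15.7 in GSK and 1.87 in SCLC of the other comparison. The labels give no sex, and whether SCLC and Normal differ in the sex of their cells was not tested.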

How the data were processed

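Libraries of mouse organoids, 3 per group, were sequenced after preparation with a stranded mRNA kit (NEB E7770), per the labels. Reads were processed with STAR 2.7.9a on build GRCm39, per the submitters' processing notes, while the sources used here do not give the counting tool or annotation. The files were 2 tables of 57010 genes, without library columns, whose columns carry the names that DESeq2 gives its output, per the file headers, though no source names the authors' test. The authors' signal column is the mean of normalized counts over the 6 libraries of a comparison. The log2 fold change with its error, the authors' score (the fold change over its standard error) and their p-value and adjusted p-value were taken as deposited. Depth per library was not analysed here.

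Group means were implied from each gene's mean and fold change, for 3 libraries a group. The control of the GSK table was taken as SCLC because, over 13634 genes, the log2 ratio of its mean to the SCLC mean of the other table had an SD of 0.00837 around a median of 0.109. The tables were scaled separately. The threshold was an adjusted p under 0.05. A group under 3 normalized counts in all, a mean of 1, was set to that floor and its fold change given as a lower bound, which covers counting error only. Exon lengths came from GENCODE M21 (build GRCm38), promoters from RefSeq (GRCm38.p6). The calculations, in Python 3.11.15 with pandas 2.3.3 and scipy 1.17.1, were tested on simulated data in which the spread was taken as known. That simulation did not reach means as low as those of Sftpa1 and Lamp3. It did not reach falls as large as that of any member in SCLC against Normal. It also did not reach a spread as wide as that of Slc34a2. The members and gene lists were chosen with earlier results of these data known. Named genes were all 10 members, the genes of each list with the 2 largest rises and falls among those that passed, and Lyz2, Lyz1, Cd74, Ctsh, Nkx2-1 and Fgfr2. The 5 genes nearest to Sftpc in their pair of fold changes were also named. Npc2, H2-Eb1, Marco, Foxa2 and Cxcl15, and genes standing alone in a count, were chosen after their values were seen. In the alternatives, fold changes were shifted and tested again as fold over the deposited standard error against a normal distribution, with Benjamini-Hochberg adjustment. Alternatives were other scalings, other filters on low values and a test of a larger change.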

Additional observations from a re-analysis of the deposited data

How the results depend on the processing

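In SCLC against Normal all 10 members passed in the same direction when scaled to equal total counts, centred on the median of abundant genes, adjusted without a filter on low values, restricted to a mean of at least 10, or tested for an absolute log2 fold change above 1. The last test left 6340 of the 12453 genes called overall. In GSK against SCLC it left 3724 of 10533 genes, and 5 members, all higher, since Sftpb and Lpcat1 no longer passed. Scaled to equal total counts or centred on the median, 6 members were called there, all higher, Lpcat1 being lost, and the other settings left 7. The shared genes called numbered 10 or 11 in SCLC against Normal and 9 or 10 in GSK against SCLC over these settings. No member lay under the floor of 3 counts per group, so no member's fold change was a bound at that floor or at one of 1 or 10. Leaving out replicates and a comparison of count tools were not run, since the tables hold no library columns. No paired analysis was possible because the deposited tables carry no replicate numbers. The implied spread and levels rest on the authors' fitted values and cannot show which library set them.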

Other observations

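Markers of other epithelial cells of the lung were read in the same tables. Of 11 type I cell markers, 9 were lower and Spock2 (3.59 ± 0.31) and Igfbp2 (3.25 ± 0.81) higher in SCLC than in Normal in the authors' deposited table. In GSK against SCLC, 9 were higher and Aqp5, a water channel, was lower (-4.59 ± 0.63, adjusted p of 1.01e-11) in the authors' deposited table. Clic5, a chloride channel protein that endothelium also makes, had 1468 in GSK and 1.30 in SCLC (10.14 ± 0.76, adjusted p of 1.25e-37 in the authors' deposited table), and Cav1, the caveolin of type I cells and of endothelium, had 3326 in GSK and 3.79 in SCLC (9.78 ± 0.61, adjusted p of 9.57e-55 in the authors' deposited table).

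Among 7 club cell markers, 4 were higher in GSK than in SCLC in the authors' deposited table. Scgb1a1, the club cell secretory protein, had 5428 in GSK and 2.37 in SCLC (11.16 ± 0.74, adjusted p of 2.43e-48 in the authors' deposited table), and stood at 31.5% of its level in Normal. Scgb3a2, another secretoglobin, was at least 590.0-fold higher in GSK in the authors' deposited table and stood at 91.8% of its Normal level. These are the markers with the largest rises, and over the 7 markers the median was 16.9% of the Normal level and the lowest 0.777%. Of 7 markers of the transitional alveolar epithelium, all 7 were lower in SCLC than in Normal, and 3 were higher in GSK than in SCLC, with Lcn2 at 4.16 ± 1.30 (adjusted p of 0.00553) in the authors' deposited table.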
